A study of Mus musculus with 12 samples.

Results

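The 10 genes described here build and hold the light-sensitive outer segment of rods and cones: Prph2 and Rom1 of the disc rim, Cdhr1, Prom1 and Fscn2 of disc morphogenesis, Rp1, Rpgr and Rpgrip1 of the axoneme and connecting cilium, and Impg1 and Impg2 of the interphotoreceptor matrix. They were chosen by symbol for these roles, and all 10 were found among the 24570 named genes of the array table. Whole retina of male C57Bl6/J mice was profiled with 1 array per animal, for 6 mice made diabetic with streptozotocin (160 mg/kg injected into the peritoneum at 8 weeks of age and 24 to 26 g, with blood glucose above 15 mM after 7 days) and for 6 normoglycaemic mice that received none. Streptozotocin destroys the insulin-producing cells of the pancreas, so the model is one of insulin deficiency by a toxin. Both groups were of the same strain with no genetic change labelled, were kept in 12 h light and 12 h dark on standard chow, and were killed at 6 weeks. A sample label places this time after the induction of diabetes, whereas the series text gives 6 weeks as the age of the animals. With injection at 8 weeks both cannot hold, and the age at death is therefore left unstated here. The labels name the arrays of each group as biological replicates 1 to 6, and arrays are called here by group and number, such as diabetic 3.

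The outer segment is a modified cilium packed with membrane discs that carry the visual pigment. New discs form at its base, just above the connecting cilium, and old ones are taken up by the pigment epithelium at its tip, so the structure is renewed throughout life. Prph2 and Rom1 are related tetraspanins that curve the disc rim. Cdhr1, a photoreceptor cadherin, and Prom1, which marks membrane protrusions, act where new discs open, and Fscn2 bundles actin. Rp1 is a microtubule-associated protein of the axoneme, Rpgr is a regulator of traffic through the connecting cilium, and Rpgrip1 anchors it there. Impg1 and Impg2 are proteoglycans of the matrix that surrounds the outer segments. Loss of any of several of these genes is a known cause of inherited retinal degeneration.

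Upstream sequences of 3 members are given to show how the proximal promoters of the set differ: the disc rim partners Prph2 and Rom1, and Rpgr, whose value went furthest upward. Each is the 250 bases before the transcription start in RefSeq (GRCm38.p6), written 5′ to 3′ on the strand of the gene. Capitals mark TAATC on either strand, the core of the sites bound by the photoreceptor homeodomain factor Crx and its relative Otx2. The windows are chr17:46910228-46910477 on the plus strand for Prph2, chr19:8929357-8929606 on the minus strand for Rom1 and chrX:10216796-10217045 on the minus strand for Rpgr. Rpgr had another window, which is not printed.
Prph2: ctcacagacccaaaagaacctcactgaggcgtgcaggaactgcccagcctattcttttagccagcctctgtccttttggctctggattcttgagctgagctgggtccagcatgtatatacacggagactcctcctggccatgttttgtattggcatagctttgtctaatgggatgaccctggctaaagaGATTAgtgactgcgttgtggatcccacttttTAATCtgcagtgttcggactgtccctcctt
Rom1: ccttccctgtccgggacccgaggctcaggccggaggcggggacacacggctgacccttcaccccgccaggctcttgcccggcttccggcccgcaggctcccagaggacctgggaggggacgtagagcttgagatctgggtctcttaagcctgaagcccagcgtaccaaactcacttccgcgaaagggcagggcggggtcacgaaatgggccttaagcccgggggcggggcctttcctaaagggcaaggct
Rpgr: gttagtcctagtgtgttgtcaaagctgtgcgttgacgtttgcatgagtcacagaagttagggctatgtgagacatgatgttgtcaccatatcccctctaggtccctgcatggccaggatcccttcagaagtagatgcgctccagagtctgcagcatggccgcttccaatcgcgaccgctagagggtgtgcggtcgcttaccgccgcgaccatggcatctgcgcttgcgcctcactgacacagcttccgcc

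The window of Prph2 held TAATC at 2 places, whose first bases lay 61 and 30 bases before the start, while those of Rom1 and Rpgr held none. In the RefSeq table, 9 of the 10 members had a window (Rp1 had none), and Prom1 and Rpgr had 2 each, which made 11. TAATC was present in 5 of the 9 members (Prph2, Impg1, Impg2, Prom1 and Rpgrip1), against 19.8% of all 32851 windows of this length. Counted by window, as that share is, TAATC was in 5 of the 11. Of these 5 windows, only that of Prph2 did not overlap the annotated span of its own gene. For each motif below, as many member windows as members held it, so those counts also stand out of 11 windows. The longer TAATCC, which contains it, was present in Rpgrip1 alone of the members and in 6.25% of all windows. TGCTGA, a half-site of the rod factor Nrl and other Maf proteins, was also found in Rpgrip1 alone, against 16.1%. All motifs were searched on both strands. GGGCGG, the letters of a GC box, was present in 4 members against 32.7% of all windows, and TATAA in 3 members against 22.8%. Rpgr held GGGCGG only in the window that is not printed. The homeodomain variant TAAGCC was present in 3 members against 8.20%, TAATTA in 1 against 4.84%, the nuclear receptor half-site AGGTCA in 1 against 14.0% and the E-box CAGCTG in 1 against 13.0%. The E-box CACGTG was present in none of the 9, against 6.02%. For 5 members (Fscn2, Impg1, Impg2, Prom1 and Rpgrip1) every window overlapped the annotated span of the gene itself. These matches describe the letters in the windows, and binding was not measured.

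The arrays gave log2 values made with RMA, a method that corrects background, normalizes arrays to a common distribution and summarizes the probes of a gene. The labels also number the animals, in separate ranges for control and diabetic mice, so any cohort or day behind these numbers cannot be told apart from diabetes. Array pairs correlated between 0.993 and 0.998 over all named genes. The labelled tissue was borne out by its photoreceptor markers: the 8 rod markers averaged from 12.1 to 12.2 on control arrays and from 12.0 to 12.2 on diabetic arrays, where the median of each array was 5.73. Markers of tissue next to the retina varied between arrays, and whether such tissue was carried over was not tested. The 9 lens markers averaged from 5.91 to 6.70 on control arrays and from 5.79 to 7.72 on diabetic arrays, highest on diabetic 6, with 5 of the 9 below the array median in their mean over all arrays. All 9 lay above 0 in the difference between groups, and none passed limma at an adjusted p of 0.05. At an unadjusted p under 0.05 there was 1 by limma and 1 by the exact permutation test, against 21.0% and 20.7% of all genes. The part of the lens markers in the values of the outer segment structure genes was not tested. Without diabetic 2 and 6 together, all 10 genes kept their direction and 0 passed. With every array included 0 passed as well, so this run cannot decide whether the lens markers played a part. The 8 pigment epithelium markers averaged from 6.88 to 7.72 and from 6.82 to 8.21, again highest on diabetic 6. The mean of the red blood cell markers (3 of 5 measured) reached at most 5.37 on any array. That of the cornea markers reached 5.42, of the skeletal muscle markers 5.55 and of the microglia markers 5.69. These list means were all below the array median. Of the single markers, 5 of 6 for skeletal muscle and 4 of 6 for microglia were below it in their mean over all arrays.

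No outer segment structure gene passed the test for a difference between diabetic and control retinas. The test was limma, with the threshold at an adjusted p of 0.05 over all 24570 genes. The groups overlapped for each of the 10. At an unadjusted p under 0.05 there was 1 member, Impg2, by limma and also 1 by the exact permutation test, while 5165 of all genes (21.0%) were below that value by limma and 5089 (20.7%) by the exact permutation test. Over all genes, 3.24% (797) passed at the adjusted threshold by limma and 0 passed by the exact permutation test, whose smallest possible p is 0.00216. Non-overlapping groups were found for 2.84% of all genes, 698 in number. Of the genes in the top 10% of mean level, 5.33% passed. Split by direction, 1.77% of all genes were lower and 1.47% higher in diabetic retinas. At a looser adjusted p of 0.1, 8.01% of all genes and still 0 of the 10 members passed. The 10 differences ranged from -0.11 to 0.13 on the log2 scale, and their 95% intervals together reached from -0.21 to 0.29, that is from 0.863-fold to 1.22-fold. Values below 0 were found for 8 members (median of the 10, -0.06), where 51.9% of all genes lay below 0 (median 0.00) and 48.5% of the 2458 genes in the top 10% of mean level did. Since RNA came from whole retina, fewer photoreceptors and less RNA per photoreceptor could not be told apart in any of these values.

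**Figure D1:**
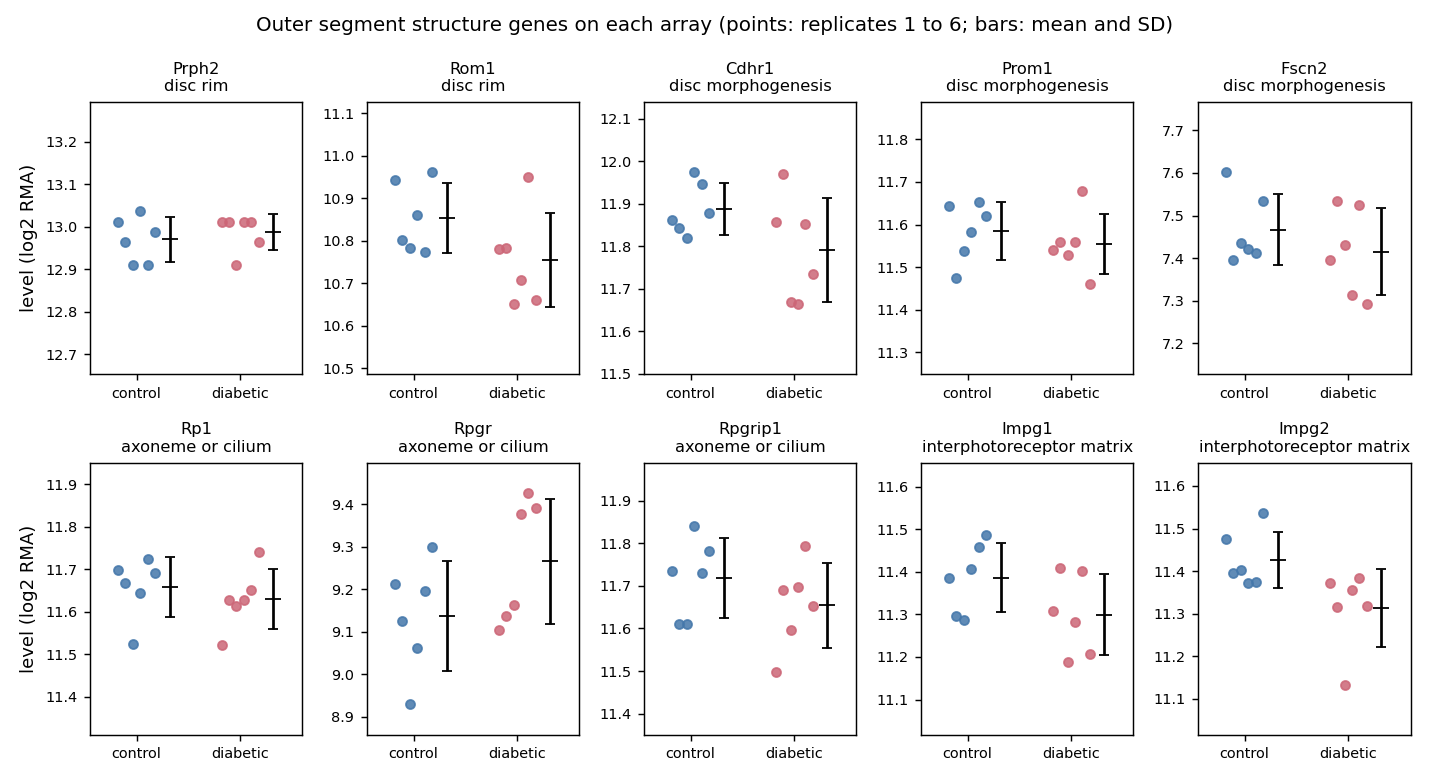
Level of each of the 10 genes on every array, in log2 RMA units; points are replicates 1 to 6 of each group from left to right, and bars give the mean and SD over 6 animals. All panels span the same range of log2 units around the gene's own values. The groups overlap in every panel; Impg2 has 4 diabetic arrays below all controls, and Rpgr has 3 above all controls.

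Neither disc rim gene passed the test, and their values differed in sign. Prph2 (Entrez gene 19133) ran from 12.91 to 13.04 with a median of 12.98 in controls and from 12.91 to 13.01 with a median of 13.01 in diabetic retinas. The ranges of the groups nearly coincided. The difference was 0.02 ± 0.03 (SE, n = 6 per group; limma adjusted p = 0.773), with a 95% interval from -0.04 to 0.08, the narrowest of the set. Prph2 was among the brightest genes of every array, at ranks 15 to 20 of 24570. Because the arrays share 1 set of sorted values, it took only 5 distinct values on the 12 arrays, and its spread reflects steps of rank.

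Rom1 (Entrez gene 19881), the partner of Prph2 in rim complexes, ran from 10.77 to 10.96 with a median of 10.83 in controls and from 10.65 to 10.95 with a median of 10.74 in diabetic retinas. Diabetic 3, 4 and 6 lay below all controls, while diabetic 5 lay with the highest control. The difference was -0.10 ± 0.05 (limma adjusted p = 0.313; 95% interval -0.21 to 0.02), about 1 within-group SD, and 5 of 6 diabetic arrays were below the control mean.

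Among the genes of disc morphogenesis, Cdhr1 (Entrez gene 170677) ran from 11.82 to 11.97 with a median of 11.87 in controls and from 11.66 to 11.97 with a median of 11.79 in diabetic retinas. Its diabetic values were split, with diabetic 3, 4 and 6 below all controls and diabetic 2 beside the highest control, so that the SD was 0.12 in diabetic retinas and 0.06 in controls. The difference was -0.10 ± 0.05 (limma adjusted p = 0.320; 95% interval -0.21 to 0.02). Prom1 (Entrez gene 19126) ran from 11.47 to 11.65 with a median of 11.60 in controls and from 11.46 to 11.68 with a median of 11.55 in diabetic retinas. For Prom1 the diabetic range enclosed that of the controls, and the difference was -0.03 ± 0.04 (limma adjusted p = 0.695; 95% interval -0.11 to 0.05).

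Fscn2 (Entrez gene 238021), the actin-bundling fascin of the retina, had the lowest position of the set, at the 77.0th percentile of all genes, and the other 9 members were all in the top 10%. Such a position describes the signal of the gene's probes and not its abundance relative to the others. Fscn2 ran from 7.39 to 7.60 with a median of 7.43 in controls and from 7.29 to 7.54 with a median of 7.41 in diabetic retinas. Diabetic 4 and 6 were below all controls, and control 1 was the highest array. The difference was -0.05 ± 0.05 (limma adjusted p = 0.609; 95% interval -0.16 to 0.06).

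The axonemal gene Rp1 (Entrez gene 19888) ran from 11.53 to 11.72 with a median of 11.68 in controls and from 11.52 to 11.74 with a median of 11.63 in diabetic retinas. Its lowest value was on diabetic 1 and its highest on diabetic 6, so the diabetic range enclosed that of the controls. The difference was -0.03 ± 0.04 (limma adjusted p = 0.733; 95% interval -0.11 to 0.06).

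Rpgr (Entrez gene 19893), the X-linked regulator of the connecting cilium, was the member with the largest positive difference and the widest spread. It ran from 8.93 to 9.30 with a median of 9.16 in controls and from 9.10 to 9.43 with a median of 9.27 in diabetic retinas. Diabetic 4, 5 and 6 lay above all controls, whereas diabetic 1, 2 and 3 lay inside the control range. The difference was 0.13 ± 0.07 (limma adjusted p = 0.351; 95% interval -0.03 to 0.29), so a rise of up to 1.22-fold stays within the interval. Rpgr is known to be made in several isoforms, one of them prominent in photoreceptors, and the single value per gene does not tell them apart.

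Rpgrip1 (Entrez gene 77945), which tethers Rpgr in the connecting cilium, ran from 11.61 to 11.84 with a median of 11.73 in controls and from 11.50 to 11.79 with a median of 11.67 in diabetic retinas. Diabetic 1 and 3 lay below all controls, and the other 4 diabetic arrays were inside their range. The difference was -0.06 ± 0.05 (limma adjusted p = 0.531; 95% interval -0.18 to 0.05).

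The matrix proteoglycan gene Impg2 (Entrez gene 224224) came closest to the threshold. It ran from 11.37 to 11.54 with a median of 11.40 in controls and from 11.13 to 11.38 with a median of 11.34 in diabetic retinas. All 6 diabetic arrays were below the control mean and 4 were below all controls, with diabetic 3 far below the others and the remaining diabetic arrays between 11.32 and 11.38. The difference was -0.11 ± 0.04 (0.925-fold; limma adjusted p = 0.167, unadjusted p = 0.0242; exact permutation p = 0.0108, adjusted p = 0.129). The 95% interval, not adjusted for the number of genes, was -0.21 to -0.02. Without diabetic 3 the difference was -0.08, with an adjusted p of 0.216 by limma.

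Impg1 (Entrez gene 63859), the second matrix proteoglycan, ran from 11.29 to 11.49 with a median of 11.40 in controls and from 11.19 to 11.41 with a median of 11.30 in diabetic retinas. Diabetic 3, 4 and 6 were below all controls, and diabetic 2 and 5 were above the control mean. The difference was -0.09 ± 0.05 (limma adjusted p = 0.326; 95% interval -0.19 to 0.02).

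**Figure D2:**
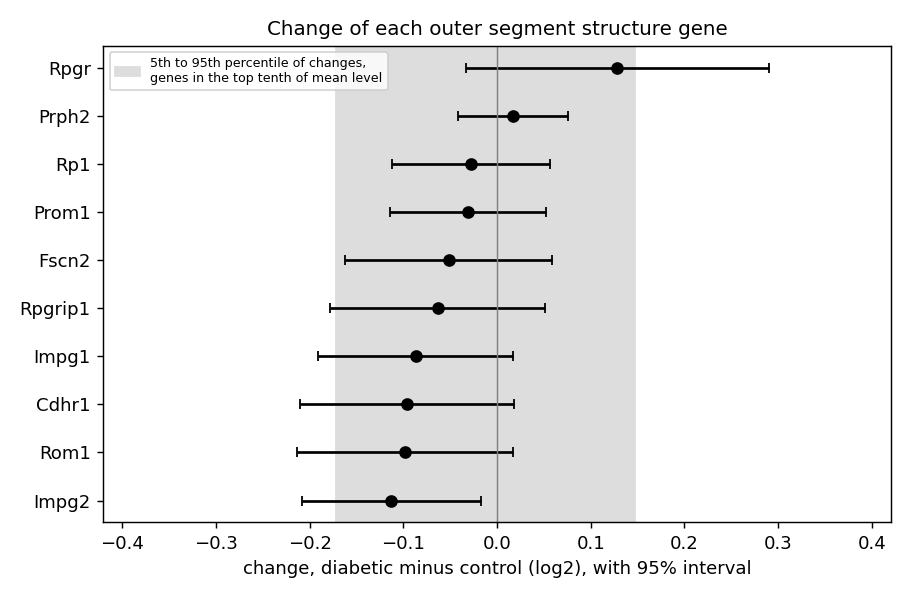
Difference between diabetic and control retinas for each gene (log2, limma), ordered from highest to lowest; bars are 95% intervals, not adjusted for the number of genes, and the grey band spans the 5th to the 95th percentile of differences among genes in the top 10% of mean level. All 10 differences lie inside the band, which runs from -0.17 to 0.15, and only the interval of Impg2 leaves out 0.

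The members were measured about as tightly as other bright genes. Their SD within groups had a median of 0.09 and ran from 0.05 for Prph2 to 0.14 for Rpgr, while the median for the 2458 genes in the top 10% of mean level was 0.08. No difference among the 10 reached 1.5 times the SD within groups; the largest in these terms was that of Impg2, at -1.41.

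Single arrays tended to be low or high for several members at once. On control 3 all 10 members lay below the control mean (mean deviation -0.08), and on control 6 only 1 did (0.07). Among diabetic retinas, diabetic 3 had 9 members below the control mean (mean deviation -0.12) and held the lowest value of the 12 arrays for 4 members, 1 of them shared with control arrays. Diabetic 5 had 3 members below the control mean (0.06). Mean deviations ran from -0.08 to 0.07 over controls and from -0.12 to 0.06 over diabetic retinas, so the groups overlapped in this summary as well. On diabetic 4 and 6 Rpgr was above its control mean, while Rom1, Cdhr1, Fscn2 and Impg1 were below theirs. Prph2 on diabetic 4 (0.04) and Rp1 on diabetic 6 (0.08) were above theirs as well.

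**Figure D3:**
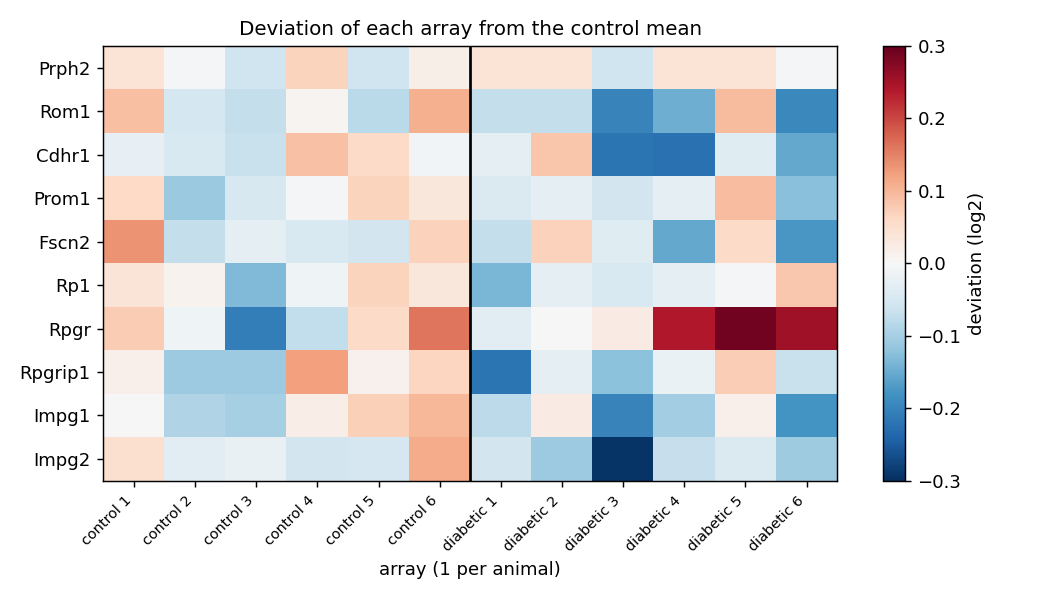
Deviation of each array from the control mean of the gene (log2), with genes in rows, arrays in columns and a black line between control and diabetic arrays; red is higher and blue lower. Diabetic 3 is blue for 9 of 10 genes and darkest for Impg2 (-0.29), and Rpgr is red on diabetic 4, 5 and 6 (0.24, 0.29 and 0.25).

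Partner genes were also set against each other on the same array; levels themselves are not comparable between genes. These 4 pairs were chosen after the values were seen, and no test is given. Prph2 minus Rom1 ran from 2.03 to 2.18 in controls and from 2.06 to 2.30 in diabetic retinas, where 5 of 6 arrays exceeded all controls and diabetic 5 did not. The mean over controls was 2.12 ± 0.06 and that over diabetic retinas 2.23 ± 0.09 (SD over 6 animals). Rom1 alone had 3 diabetic arrays below all controls, and on diabetic 1 and 2 it was inside the control range. Prph2 took only 5 distinct values, set by its rank. As the pair was chosen after the values were seen, this difference does not show that the partners changed unequally. Rpgr minus Rpgrip1 ran from -2.78 to -2.48 in controls and from -2.55 to -2.26 in diabetic retinas, again with 5 of 6 above all controls. Its mean was -2.58 ± 0.12 in controls and -2.39 ± 0.10 in diabetic retinas, a difference of 0.19. For Cdhr1 minus Prom1 (-0.07) and Impg1 minus Impg2 (0.03) the means differed by less than the SD within groups, and the ranges overlapped widely.

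**Figure D4:**
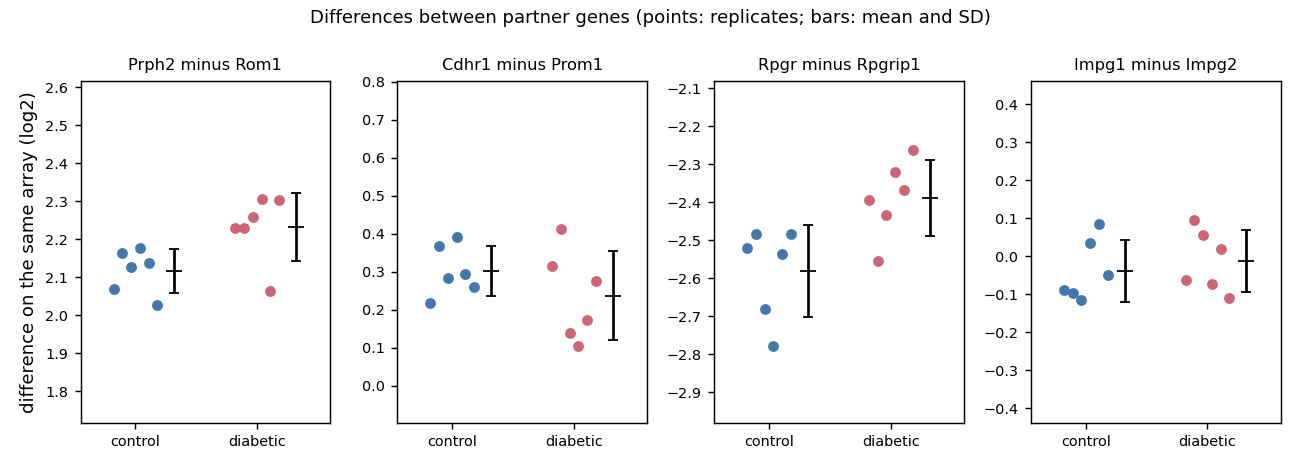
Difference of log2 values between partner genes on the same array; points are replicates 1 to 6 of each group, bars the mean and SD, and all panels span the same range of log2 units. For Prph2 minus Rom1 and for Rpgr minus Rpgrip1, pairs chosen after the values were seen, 5 of 6 diabetic arrays lie above all controls.

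Of 15 other outer segment genes, 1 passed the test: it fell, and none rose (median difference -0.02). Over all genes 3.24% passed, and 1 gene does not tell the list apart from that share. At an unadjusted p under 0.05 by limma there were 3 of the 15, against 21.0% of all genes. Rdh8, the retinol dehydrogenase that reduces released retinal in the outer segment, fell by 0.16 ± 0.04 (limma adjusted p = 0.0475), with all 6 diabetic arrays below the control mean. That call was kept without diabetic 2 (adjusted p = 0.0289) and lost without any other single array (adjusted p from 0.0533 to 0.0927). Cngb1, the second subunit of the rod cyclic nucleotide-gated channel, which is tied to the disc rim through Prph2, ran from 10.92 to 11.07 in controls and from 10.77 to 10.97 in diabetic retinas. Its difference was -0.12 ± 0.04 (limma adjusted p = 0.0949), with all 6 diabetic arrays below the control mean.

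Of 16 other connecting cilium genes none passed (median -0.01). At an unadjusted p under 0.05 there were 3 by limma and 2 by the exact permutation test, against 21.0% and 20.7% of all genes. The 2 with the smallest p went opposite ways: Cc2d2a, of the ciliary transition zone, differed by 0.15 ± 0.05 (limma adjusted p = 0.112), and Rpgrip1l, a paralogue of Rpgrip1, by -0.15 ± 0.06 (limma adjusted p = 0.169). Of 9 interphotoreceptor matrix and adhesion genes none passed either (median 0.03; 0 at an unadjusted p under 0.05 by either test), with 6 above 0, among them Cd44 (0.06 ± 0.03; limma adjusted p = 0.244) and Sparc (0.12 ± 0.06; limma adjusted p = 0.257). Among 11 photoreceptor transcription factors none passed (median 0.02). By either test 1 had an unadjusted p under 0.05, against 21.0% of all genes by limma and 20.7% by exact permutation. Crx, a main activator of outer segment genes, differed by -0.08 ± 0.06 (limma adjusted p = 0.497). Rxrg, at a mean below the array median, differed by 0.05 ± 0.02 (limma adjusted p = 0.204) and Otx2 by 0.06 ± 0.03 (limma adjusted p = 0.304).

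In the marker lists of the photoreceptors themselves, 1 of 8 rod and 1 of 8 cone genes fell and none rose, where 3.24% of all genes passed. At an unadjusted p under 0.05 by limma there were 2 of 8 rod and 3 of 8 cone genes. Below that value were 21.0% of all genes and 669 of the 2458 genes in the top 10% of mean level. Gngt1, the gamma subunit of rod transducin, fell by 0.29 ± 0.07 (limma adjusted p = 0.0430). It kept the call without control 4 or without diabetic 5 and lost it without any other single array (adjusted p from 0.0541 to 0.0807). Arr3, cone arrestin, fell by 0.30 ± 0.07 (limma adjusted p = 0.0348), with no overlap between the groups. It kept the call without control 2, control 5, diabetic 2 or diabetic 5 and lost it without any of the other 8 (adjusted p from 0.0543 to 0.0663). By the exact permutation test none of Rdh8, Gngt1 and Arr3 passed after adjustment (adjusted p = 0.108, 0.0936 and 0.0762). The rod list had a median difference of -0.02 and the cone list of -0.06. Whether rod or cone content played a part in the values of the outer segment structure genes was not tested.

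**Figure D5:**
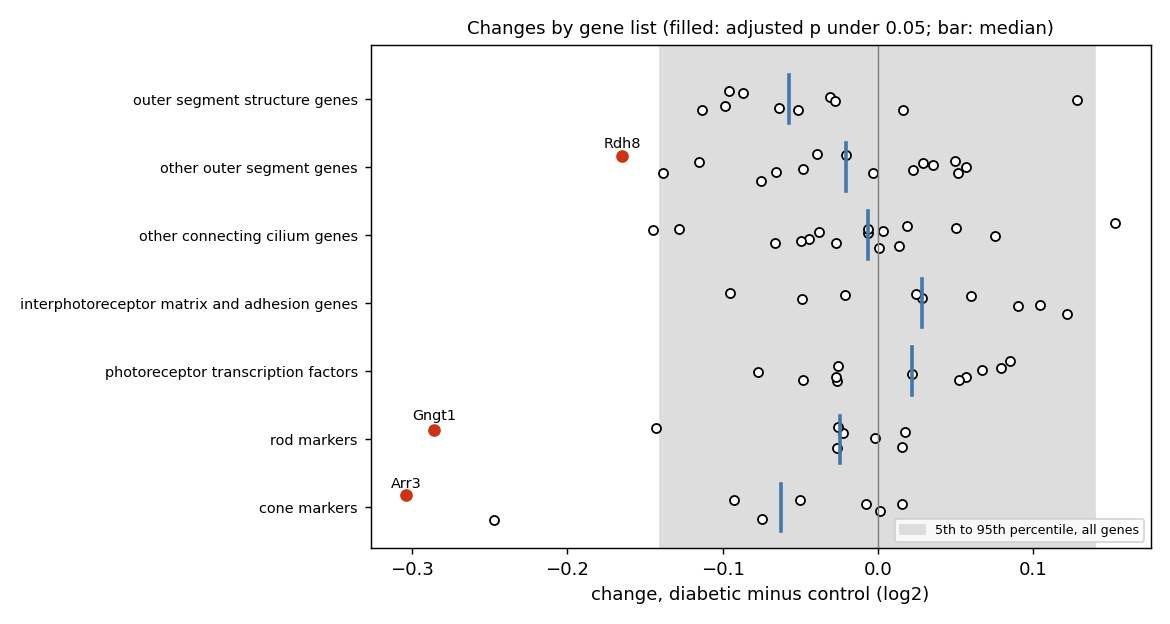
Differences between diabetic and control retinas (log2) for the members, the other gene lists and the rod and cone markers; each circle is a gene, filled where the limma adjusted p is under 0.05, blue bars are list medians, and the grey band spans the 5th to the 95th percentile of all genes (-0.14 to 0.14). Only Rdh8, Gngt1 and Arr3 are filled.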

How the data were processed

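Gene expression was measured in 12 whole retinas, 6 control and 6 diabetic, with 1 array each. The values deposited by the authors are on the log2 scale and come from RMA, per the submitters' processing notes. For the RMA version, the probe set definition and the genome build, the sources used here say nothing. Sorted values were identical on all arrays (largest difference 0), so a shift shared by most genes could not be seen. Depth does not apply to arrays, and their number limits the precision.

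Of 24973 lines, each an Entrez gene number, 24015 were named by the platform annotation and 559 by RefSeq (GRCm38.p6). The 399 without a name were left out, and for 4 symbols on several lines the brightest was kept. Groups were compared with limma 3.58.1 (R 4.3.3; lmFit and eBayes, two-sided, Benjamini-Hochberg adjustment over all 24570 genes, no filter on dim genes). The exact permutation test used all 924 relabelings and is two-sided. The procedure was tested on simulated data.

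The members, lists and alternatives were chosen with earlier results of these data known. Named genes were all members, list genes past the threshold, the 2 of smallest p in each list, and rod and cone markers past it; Crx was added after its value was seen. Whether the labels' animals shared litters or cages is not stated. Both tests take the animals as independent, which could not be checked.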

Additional observations from a re-analysis of the deposited data

Results flagged for a closer look

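Of 90 sets of 6 values examined (members, other named genes, list means and partner differences in each group), 3 had 1 array far from the other 5, where chance gives about 1 in 20. The measure is the gap of that array to its neighbour divided by the whole range. For Impg2 in diabetic retinas the ratio was 0.734, with diabetic 3 at 11.13 and the others from 11.32 to 11.38. For Prph2 minus Rom1 in diabetic retinas it was 0.685, with diabetic 5 at 2.06 and the others from 2.23 to 2.30. For the mean of the endothelium markers in diabetic retinas it was 0.668, with diabetic 2 at 6.77 and the others from 6.82 to 6.85.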

How the results depend on the processing

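The count of outer segment structure genes past the test was 0 under all 22 alternatives, and 0 to 3 of the 10 had an unadjusted p under 0.05. All 220 values of the 10 genes under the alternatives kept their direction and their side of the threshold, with a smallest adjusted p of 0.110 (Rom1 without diabetic 5). The count over all genes was less stable: 506 with the replicate block, 379 without diabetic 2 and 6 together, 0 by the exact permutation test and 1967 at a threshold of 0.1. Leaving out 1 array in turn gave 325 (without diabetic 4) to 835 (without control 5). Same-numbered arrays are different animals, and their deviations correlated between -0.16 and 0.17. Arrays of unlike number were not compared in this way, so whether same-numbered arrays shared a processing step was not tested. The calls of 3 genes that are no members also depended on the setting. Beside the single arrays, Rdh8 lost its call with an intensity trend (adjusted p = 0.0582), with robust eBayes (0.0529), without diabetic 2 and 6 together (0.0612) and by the exact permutation test (0.108). Gngt1 lost it with array weights (0.0512), with the replicate block (0.0941), without diabetic 2 and 6 together (0.118) and by the exact permutation test (0.0936). Arr3 lost it without diabetic 2 and 6 together (0.0764, from limma) and by the exact permutation test (0.0762). The partner differences, left out 1 array at a time in runs chosen after the data were seen, all moved by less than 1 SD. The cause of the changes in count was not tested. Signal over background is not known for single genes.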
